A study of Mus musculus with 6 samples.

Results

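Astrocyte and glial progenitor transcripts were followed in RNA that had been precipitated to enrich macrophage ribosomes from injured mouse spinal cord. The list held 31 genes named by symbol: astrocyte structural proteins, transporters, enzymes, connexins, matrix proteoglycans and transcription factors, with several genes of glial progenitors. Of these, 30 had a row among the 13960 rows of the unfiltered table, and Sox2, a transcription factor of neural progenitors, had none. Another 3 rows (Bcan, Clu and Ttyh1) were set aside because their library values did not match the authors' mean, which left 27 tested genes of 13042 in all. Their values did not choose the genes, but the list was drawn up with earlier results of these data known.

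The mice were chimeras of strain CD45.1, with the genotype written as LysMCre:Rplfl/fl > CD45.1, and all had a contusion of the cord at thoracic level T8; 3 libraries were made from the lesion 3 days later and 3 libraries 7 days later. LysM-Cre is active in macrophages, monocytes and neutrophils, and in the RiboTag method it switches on a tagged ribosomal protein, so that tagged ribosomes and their RNA can be pulled down from whole tissue. In this notation the donor is conventionally written first, so the neural cells and the resident microglia of the CD45.1 host should carry no tag. Uninjured tissue and RNA from before the precipitation were not analysed here. Nothing in the labels ties libraries to animals, so the spread behind each p-value is that of the 6 libraries and may be technical.

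Astrocytes are the glia that take up glutamate, buffer potassium and water, couple through gap junctions and, after injury, become reactive: they raise the intermediate filament GFAP and form a border around the lesion. Several of the genes listed here, among them Nes, Fabp7, Gli2, Gli3, Sox2 and Id4, are known from radial glia and neural progenitors, and Ptprz1, Bcan, Ncan and Cspg5 are also made by oligodendrocyte progenitors. Macrophages make some of these transcripts themselves, such as Glul, the glutamine synthetase gene.

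At 7 days, 16 of the 27 tested genes were lower than at 3 days, 0 were higher and 11 did not pass the test (limma on log2(FPKM + 1), adjusted p of 0.05 or less). FPKM are fragments scaled to the length of the transcript and the number of mapped fragments, so levels can be set beside each other between genes. Over all 13042 tested genes the same test called 20.3% lower and 18.8% higher. The 27 genes had a median difference of log2(FPKM + 1) of -1.19, beside -0.04 over all tested genes. The genes that fell included Gfap, both glutamate transporters Slc1a2 and Slc1a3, the connexin Gja1, the transcription factors Sox9 and Gli3, and the proteoglycans Ptprz1, Ncan and Cspg5. Those that did not pass included Aqp4, S100b, Fabp7, Aldoc, Glul, Id4 and Ntsr2. The 3-day libraries all lay above the 7-day libraries for each of the 16 genes that fell and for 4 of the 11 that did not pass, where 28.6% of all tested genes showed this pattern. In bulk RNA, fewer cells of a type, less RNA per cell and less untagged RNA carried through the precipitation cannot be told apart.

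**Figure D1:**
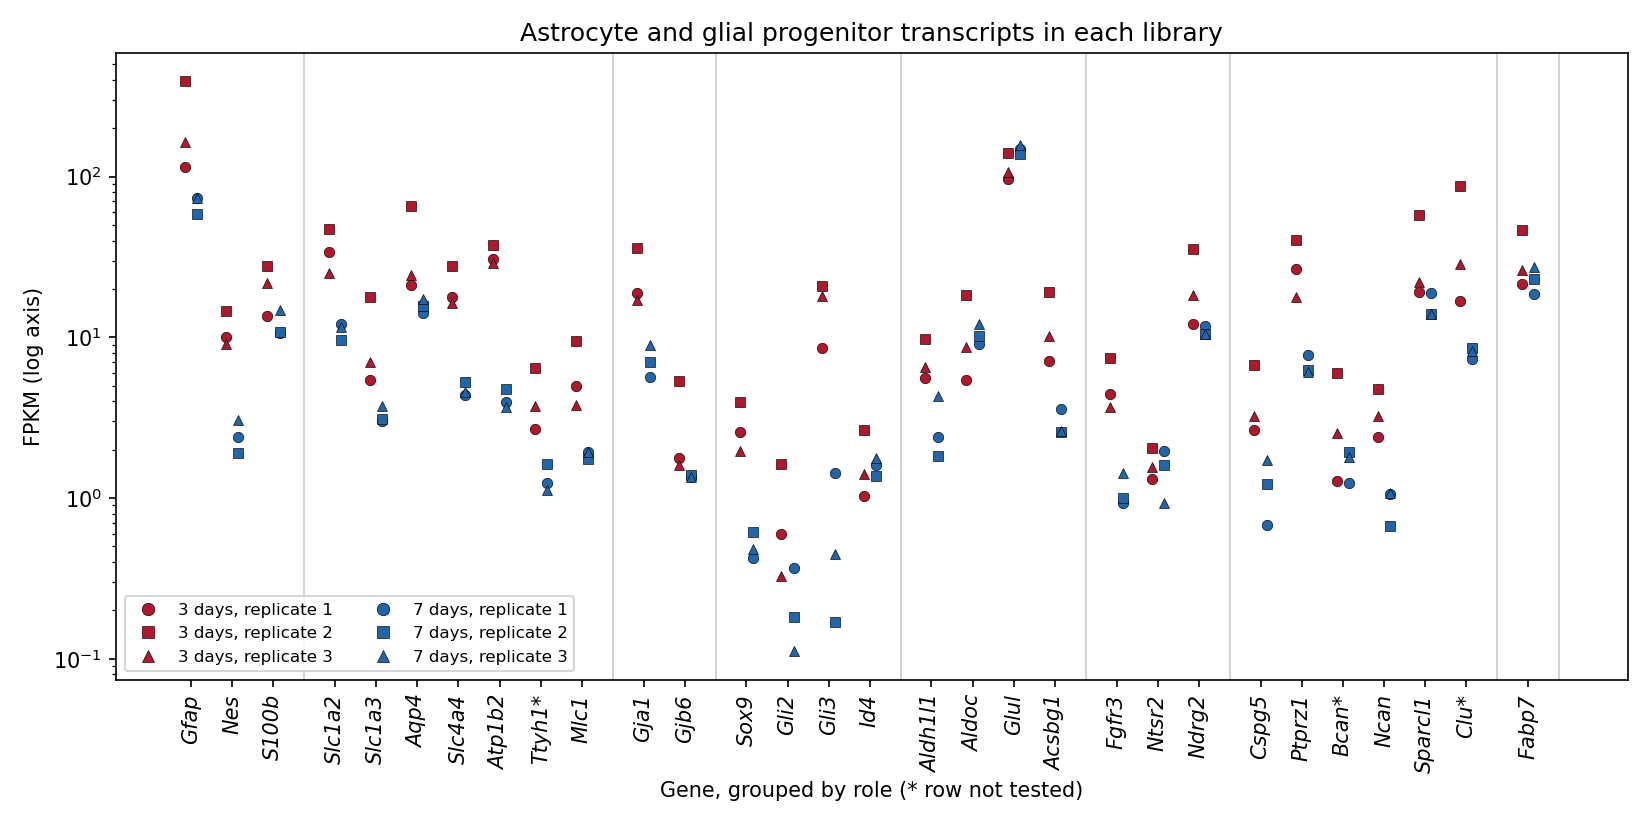
FPKM (log axis) of the 30 genes with a row in each library, grouped by role; red marks 3 days and blue 7 days, and the symbol shape gives the replicate. The red square of 3-day replicate 2 is the highest of the 6 values for 29 of the 30 genes, and most blue points sit below the red ones.

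1 library stood apart for these genes: 3-day replicate 2 was the highest of the 6 for 29 of the 30 genes, where it was highest for 26.9% of all tested genes. The exception was Glul, highest in 7-day replicate 3. The median FPKM of the 30 genes was 7.84, 18.7 and 9.67 in 3-day replicates 1, 2 and 3, and 3.31, 2.84 and 3.70 in the 7-day libraries. Without 3-day replicate 2 the test again called 16 of the 27 lower, but not the same 16, since Aldh1l1 lost its call and Aqp4 gained one. It then called 1 (Glul) higher. Ratios of means without that library are given below.

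Promoters of listed genes, whether or not they passed the test, were read from RefSeq (build GRCm38.p6). Entries for 25 of the 31 genes were used, 30 entries in all. Aqp4, Atp1b2, Clu, Cspg5, Sox9 and Sparcl1 were left out of the search, which does not show that RefSeq lacks an entry for them. In the 250 bases before each start, 6 motifs were searched on both strands, 5 of them of factors known from astrocytes: TTCNNNGAA of STAT factors such as the STAT3 of reactive astrocytes, GACCACCCA of the GLI factors, ACAATG of SOX factors, the palindromic NFI site, the shorter NFI site TTGGCA, which can overlap it, and the TATA box TATAAA. The STAT letters occurred before Acsbg1 and Slc1a3, which fell, and before Aldoc and Ntsr2, which did not pass the test, in 4 of 30 entries beside 7.02% of all 32851 promoter entries. The GLI letters occurred in 0 of the 30 entries and in 0.225% of all, the palindromic NFI site in 0 of the 30 and in 0.0365% of all, and the SOX letters in 0 of the 30 and in 10.7% of all. The shorter NFI site occurred before Aldoc, Ncan and S100b (12.3% of all entries) and the TATA letters before Ncan, Ndrg2 and Slc1a3 (12.4% of all entries). The stretches before 4 genes that fell are shown to set those with a match beside those without, 5′ to 3′ with capitals marking the STAT letters and, before Slc1a3, a TATAAA box read on the opposite strand. They are Acsbg1 at chr9:54661886-54662135 (minus strand), Slc1a3 at chr15:8710808-8711057 (minus strand), Gfap at chr11:102897201-102897450 (minus strand) and Gja1 at chr10:56377050-56377299 (plus strand), none of them overlapping an annotated exon of GENCODE M21. The Gfap window lies before the RefSeq start but inside the longer gene body that the authors' row and GENCODE give.
Acsbg1: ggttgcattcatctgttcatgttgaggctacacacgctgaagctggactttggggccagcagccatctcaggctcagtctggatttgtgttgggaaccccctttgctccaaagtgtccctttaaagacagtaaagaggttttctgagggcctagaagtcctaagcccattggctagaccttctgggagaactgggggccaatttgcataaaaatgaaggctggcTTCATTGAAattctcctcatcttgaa
Slc1a3: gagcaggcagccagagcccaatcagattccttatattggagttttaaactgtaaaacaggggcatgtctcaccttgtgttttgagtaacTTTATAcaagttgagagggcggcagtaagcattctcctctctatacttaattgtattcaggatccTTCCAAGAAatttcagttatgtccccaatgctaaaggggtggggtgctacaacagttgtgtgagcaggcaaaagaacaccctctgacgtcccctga
Gfap: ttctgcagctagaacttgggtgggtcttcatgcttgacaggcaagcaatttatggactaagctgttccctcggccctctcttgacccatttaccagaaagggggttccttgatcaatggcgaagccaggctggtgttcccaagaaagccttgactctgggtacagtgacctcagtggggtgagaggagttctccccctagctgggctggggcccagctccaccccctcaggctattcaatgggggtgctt
Gja1: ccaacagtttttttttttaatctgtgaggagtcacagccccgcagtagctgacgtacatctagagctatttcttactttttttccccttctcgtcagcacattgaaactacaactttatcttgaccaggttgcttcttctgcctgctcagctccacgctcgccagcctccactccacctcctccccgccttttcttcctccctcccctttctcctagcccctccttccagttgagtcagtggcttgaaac
The STAT letters lie at positions -26 to -18 from the Acsbg1 start and -96 to -88 from the Slc1a3 start, and none of the 6 motifs lies in the windows before Gfap and Gja1. A match is a description of these letters, and no binding was measured.

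Of the structural proteins, Gfap and Nes fell and S100b did not pass the test. Gfap, the intermediate filament that defines astrocytes, measured 114, 391 and 165 FPKM in the 3-day libraries (replicates 1, 2 and 3) and 73.5, 58.4 and 73.9 FPKM in the 7-day libraries. Every 3-day value lay above every 7-day value, but 3-day replicate 2 was 2.80 times the mean of the other 3-day libraries. The means were 223 ± 147 and 68.6 ± 8.81 FPKM (SD, n = 3), a 3.26-fold decrease, or 2.04-fold without 3-day replicate 2. The difference of log2(FPKM + 1) was -1.50 ± 0.40 (SE; adjusted p = 0.0231). Gfap lost its call without 3-day replicate 3 or any single 7-day library (adjusted p up to 0.0791). Its row lies on mm10 chromosome 11, 102886638 to 102900811.

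Nes encodes nestin, the intermediate filament of neural progenitors, which reactive astrocytes and growing endothelium also make. It measured 10.1, 14.6 and 9.13 FPKM at 3 days and 2.38, 1.90 and 3.07 FPKM at 7 days. The groups were far apart and 3-day replicate 2 was only 1.52 times the other 3-day libraries; the fold decrease was 4.60, and 3.91 without that library (log2 -1.82 ± 0.21; adjusted p = 0.00114; chromosome 3, 87971071 to 87980443). S100b, a calcium-binding protein of astrocytes that oligodendrocytes and Schwann cells also express, measured 13.6, 27.6 and 21.6 FPKM at 3 days and 10.7, 10.8 and 14.7 FPKM at 7 days. The times overlapped (log2 -0.71 ± 0.25; adjusted p = 0.0566). The S100b row runs from 76249415 to 76345307 on chromosome 10, beyond the gene, and takes in 1 other protein-coding gene (Dip2a), so the reads behind its value are uncertain.

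Among transporters and channels, 5 of 6 tested genes fell and Aqp4 did not pass. Atp1b2, the beta-2 subunit of the sodium-potassium pump and an adhesion molecule of glia, measured 30.7, 37.8 and 29.1 FPKM at 3 days and 3.94, 4.77 and 3.67 FPKM at 7 days. All 3-day libraries were close together and well above the 7-day libraries. This was a 7.87-fold decrease, and 7.23-fold without 3-day replicate 2 (log2 -2.70 ± 0.14; adjusted p = 8.8e-05; chromosome 11, 69599670 to 69605964). Atp1b2 had the lowest adjusted p of the 27 genes and the smallest excess in 3-day replicate 2, at 1.27 times the other 3-day libraries.

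Slc4a4, a sodium bicarbonate cotransporter that regulates pH in astrocytes, measured 17.8, 27.7 and 16.3 FPKM at 3 days and 4.37, 5.28 and 4.59 FPKM at 7 days (log2 -1.88 ± 0.20; adjusted p = 8.85e-04). It fell 4.34-fold with no overlap between times, and 3.60-fold without 3-day replicate 2. Slc1a2, the main glutamate transporter of astrocytes (GLT-1), measured 33.9, 47.3 and 25.1 FPKM at 3 days and 12.1, 9.67 and 11.6 FPKM at 7 days, a 3.19-fold decrease, or 2.65-fold without that library (log2 -1.55 ± 0.22; adjusted p = 0.00222; chromosome 2, 102658609 to 102790963). Its partner Slc1a3 (GLAST), the glutamate transporter that radial glia also carry, was lower in level, at 5.41, 17.8 and 7.04 FPKM at 3 days and 3.02, 3.09 and 3.73 FPKM at 7 days. Slc1a3 fell 3.07-fold on means that 3-day replicate 2 raised, and 1.90-fold without that library (log2 -1.21 ± 0.37; adjusted p = 0.037). Its call was lost with quantile normalization, without 3-day replicate 3 and without any single 7-day library (adjusted p up to 0.101). The glutamate transporters thus both fell, Slc1a2 keeping its call under each of the 13 alternatives that tested it.

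Mlc1, a membrane protein of astrocyte endfeet that is mutated in a leukodystrophy with cysts, measured 4.95, 9.52 and 3.78 FPKM at 3 days and 1.95, 1.74 and 1.93 FPKM at 7 days (log2 -1.22 ± 0.28; adjusted p = 0.014). The fold decrease of Mlc1 was 3.25, or 2.33 without 3-day replicate 2, and its call was lost without 7-day replicate 2, with an adjusted p just over the threshold. Aqp4, the water channel of astrocyte endfeet, measured 21.2, 65.5 and 24.3 FPKM at 3 days and 14.2, 15.7 and 17.3 FPKM at 7 days. The times did not overlap, but 3-day replicate 2 was 2.88 times the others, and the difference did not pass the test (log2 -1.003 ± 0.38; adjusted p = 0.072). Without 3-day replicate 2 the ratio of means was 1.45 and Aqp4 was called lower (adjusted p = 0.0289), as it was without 3-day replicate 1 (adjusted p = 0.0424). Ttyh1, a chloride channel family member of glial progenitors whose row was set aside, measured 2.71, 6.48 and 3.75 FPKM at 3 days and 1.25, 1.62 and 1.12 FPKM at 7 days. Those library values average 4.31 FPKM at 3 days, whereas the authors' deposited table lists a mean of 15.3 FPKM, so the level of Ttyh1 is uncertain.

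The connexins form the gap junctions that couple astrocytes. Gja1 (connexin 43) measured 18.8, 35.8 and 17.1 FPKM at 3 days and 5.70, 7.06 and 8.92 FPKM at 7 days, and fell 3.30-fold with no overlap, or 2.48-fold without 3-day replicate 2 (log2 -1.54 ± 0.28; adjusted p = 0.00581; chromosome 10, 56377278 to 56391194). Gja1 is also made by fibroblasts and endothelium. Gjb6 (connexin 30), which is more restricted to astrocytes, was at 1.78, 5.37 and 1.59 FPKM at 3 days and 1.36, 1.39 and 1.34 FPKM at 7 days. The times did not overlap, but the difference rested on 3-day replicate 2, with a 2.14-fold ratio of means that was 1.24 without it, and did not pass the test (log2 -0.60 ± 0.34; adjusted p = 0.189). Of 9 other tested connexin and pannexin genes, 4 fell and 0 rose; 2 were called lower without 3-day replicate 3, 7-day replicate 1 or 7-day replicate 2. Gjc3, a connexin of oligodendrocytes and Schwann cells, fell from 7.04 ± 1.82 to 1.56 ± 0.203 FPKM, Gjb1 (connexin 32) from 4.03 ± 2.28 to 0.931 ± 0.151 FPKM, the endothelial Gja4 from 1.70 ± 1.35 to 0.167 ± 0.186 FPKM, and Gjc1 from 2.67 ± 0.791 to 1.03 ± 0.702 FPKM (SD, n = 3).

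Among the transcription factors, Gli3 and Sox9 fell, and Gli2 and Id4 did not pass. Gli3, a zinc finger factor at the end of the hedgehog pathway, measured 8.54, 20.9 and 17.97 FPKM at 3 days and 1.44, 0.169 and 0.449 FPKM at 7 days. Every 7-day library was near or under 1 FPKM, and the means differed 23.1-fold, the largest ratio among the 30 genes (log2 -3.30 ± 0.38; adjusted p = 0.0011). That ratio rests on low 7-day values: it was 51.2 without 7-day replicate 1, the highest of them, and 19.4 without 3-day replicate 2. The authors' deposited table gives Gli3 a q-value of 0.103. The Gli3 row spans chromosome 13, 15644215 to 15724679, which holds 30.9% of the exonic bases that GENCODE M21 annotates for the gene. Gli3 is also expressed by fibroblasts and other mesenchymal cells.

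Sox9, which specifies astrocytes and is a nuclear marker of them in the cord, measured 2.59, 3.98 and 1.96 FPKM at 3 days and 0.425, 0.613 and 0.484 FPKM at 7 days. It fell 5.61-fold, or 4.49-fold without 3-day replicate 2, with no overlap (log2 -1.32 ± 0.22; adjusted p = 0.00418; chromosome 11, 112782376 to 112787762). Gli2, the main activator among the GLI factors, was low throughout, at 0.594, 1.63 and 0.326 FPKM at 3 days and 0.366, 0.181 and 0.112 FPKM at 7 days. The times overlapped (adjusted p = 0.148), and the Gli2 row covers only 9.06% of the annotated exonic bases. Id4, an inhibitor of helix-loop-helix factors in neural stem cells and astrocytes, measured 1.03, 2.65 and 1.42 FPKM at 3 days and 1.61, 1.37 and 1.77 FPKM at 7 days, with the 7-day values inside the 3-day range (adjusted p = 0.941).

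Of 11 other tested hedgehog pathway genes, 4 fell and 0 rose, with a median log2 difference of -0.47. Boc, a co-receptor for hedgehog ligands, fell from 23.4 ± 6.25 to 4.66 ± 3.65 FPKM. Evc, a cilium protein needed for hedgehog signalling, fell from 4.64 ± 0.867 to 1.46 ± 0.892 FPKM. The receptor gene and pathway target Ptch1 fell from 4.10 ± 0.873 to 2.36 ± 0.222 FPKM, and the GLI inhibitor Sufu from 3.76 ± 0.251 to 2.09 ± 0.200 FPKM (SD, n = 3). Only 2 hedgehog genes were called lower when 3-day replicate 2 was left out or after quantile normalization. The count was also 2 on the authors' filtered table, which holds fewer rows.

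Of the metabolic enzymes, Acsbg1 and Aldh1l1 fell, and Aldoc and Glul did not pass the test. Acsbg1, an acyl-CoA synthetase for long fatty acids, measured 7.15, 19.2 and 10.2 FPKM at 3 days and 3.60, 2.59 and 2.63 FPKM at 7 days. It fell 4.14-fold, or 2.96-fold without 3-day replicate 2 (log2 -1.65 ± 0.32, adjusted p = 0.00704). The Acsbg1 row, chromosome 9, 54586471 to 54661697, runs beyond the lower GENCODE M21 end of the gene at 54604877. No other protein-coding gene lies wholly inside the row, and partial overlaps were not checked. Aldh1l1, the folate enzyme widely used to mark astrocytes, measured 5.62, 9.74 and 6.54 FPKM at 3 days and 2.38, 1.84 and 4.31 FPKM at 7 days. It fell 2.57-fold without overlap, or 2.14-fold without 3-day replicate 2 (log2 -1.13 ± 0.28; adjusted p = 0.0176), a call that was lost without 3-day replicate 2 and without 7-day replicates 1 or 2 (adjusted p up to 0.0603).

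Aldoc, the brain form of the glycolytic enzyme aldolase, measured 5.46, 18.3 and 8.70 FPKM at 3 days and 9.04, 10.2 and 12.1 FPKM at 7 days, with the 7-day values inside the 3-day range (log2 0.09 ± 0.36; adjusted p = 0.847). Without 3-day replicate 2 the difference of Aldoc was 0.52 and did not pass either (adjusted p = 0.118). Glul, which turns glutamate and ammonia into glutamine, was at 96.003, 141 and 108 FPKM at 3 days and 148, 139 and 158 FPKM at 7 days. Only 3-day replicate 2 reached the 7-day range (log2 0.38 ± 0.15; adjusted p = 0.0791). Without that library Glul was called higher (log2 0.54; adjusted p = 0.0148), as it was when each library was centred on its median gene, and the authors' deposited table gives it a q-value of 0.0271.

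Of the receptors and signalling genes, only Fgfr3 fell. Fgfr3, a fibroblast growth factor receptor of astrocytes and their precursors, measured 4.43, 7.47 and 3.70 FPKM at 3 days and 0.938, 0.995 and 1.42 FPKM at 7 days, a 4.65-fold decrease, or 3.64-fold without 3-day replicate 2 (log2 -1.51 ± 0.24; adjusted p = 0.00375; chromosome 5, 33721749 to 33737178). Ntsr2, a neurotensin receptor of astrocytes, measured 1.32, 2.04 and 1.57 FPKM at 3 days and 1.95, 1.61 and 0.928 FPKM at 7 days, and the times overlapped (adjusted p = 0.737). Ndrg2, an astrocyte protein of the NDRG family, measured 12.1, 35.4 and 18.3 FPKM at 3 days and 11.7, 10.4 and 10.5 FPKM at 7 days. The times did not overlap, but 3-day replicate 1 was close to the 7-day libraries (log2 -0.82 ± 0.33; adjusted p = 0.0857).

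Matrix and secreted proteins included the proteoglycans that accumulate in the glial scar. Ptprz1, a receptor phosphatase whose secreted form is phosphacan, measured 26.5, 40.4 and 17.7 FPKM at 3 days and 7.77, 6.30 and 6.05 FPKM at 7 days. It fell 4.20-fold, and 3.30-fold without 3-day replicate 2 (log2 -1.85 ± 0.27; adjusted p = 0.00253; chromosome 6, 22875537 to 23049947). Ncan (neurocan), a lectican that binds hyaluronan, measured 2.39, 4.78 and 3.26 FPKM at 3 days and 1.07, 0.672 and 1.07 FPKM at 7 days, a 3.71-fold decrease, or 3.01-fold without 3-day replicate 2 (log2 -1.18 ± 0.23; adjusted p = 0.00736). The Ncan row covers 12.5% of the annotated exonic bases. Cspg5 (neuroglycan C) measured 2.64, 6.75 and 3.23 FPKM at 3 days and 0.678, 1.22 and 1.73 FPKM at 7 days (log2 -1.18 ± 0.32; adjusted p = 0.0239), a 3.48-fold decrease, or 2.43-fold without 3-day replicate 2. Cspg5 lost its call with quantile normalization and without 7-day replicates 1 or 2.

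Bcan (brevican), the lectican of perineuronal matrix, was set aside; its library values were 1.28, 5.98 and 2.54 FPKM at 3 days and 1.24, 1.94 and 1.81 FPKM at 7 days, and overlapped. Sparcl1 (hevin), a synapse-promoting protein that endothelium also makes, measured 19.2, 57.6 and 22.01 FPKM at 3 days and 18.9, 14.05 and 13.9 FPKM at 7 days (log2 -0.87 ± 0.38; adjusted p = 0.105). The times did not overlap, though its 3-day replicates 1 and 3 lay within a few FPKM of 7-day replicate 1. Clu (clusterin), a secreted chaperone, was set aside, and its library values were 16.8, 87.03 and 28.6 FPKM at 3 days and 7.31, 8.53 and 8.20 FPKM at 7 days. The times did not overlap for Clu, and 3-day replicate 2 was 3.83 times the other 3-day libraries, the largest such excess among the 30 genes. When rows with such mismatches were kept, Clu and Ttyh1 were called lower (adjusted p = 0.0202 and 0.0154) and Bcan was not (adjusted p = 0.291).

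Of 9 tested partners of the lecticans in the matrix, 6 fell and 0 rose, with a median log2 difference of -0.89. Tnc (tenascin C) fell from 63.3 ± 30.9 to 5.63 ± 2.55 FPKM, Vcan (versican), which monocytes also make, from 25.2 ± 5.13 to 4.59 ± 1.01 FPKM, the link protein gene Hapln2 from 4.38 ± 1.26 to 0.461 ± 0.160 FPKM, and the hyaluronan synthase gene Has2 from 1.80 ± 0.547 to 0.243 ± 0.0414 FPKM (SD, n = 3). Fabp7, the brain lipid-binding protein of radial glia and a marker of Schwann cells too, was the only lipid binding gene on the list. It measured 21.4, 46.2 and 26.2 FPKM at 3 days and 18.5, 23.1 and 27.2 FPKM at 7 days, and the times overlapped (log2 -0.37 ± 0.28; adjusted p = 0.304).

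**Figure D2:**
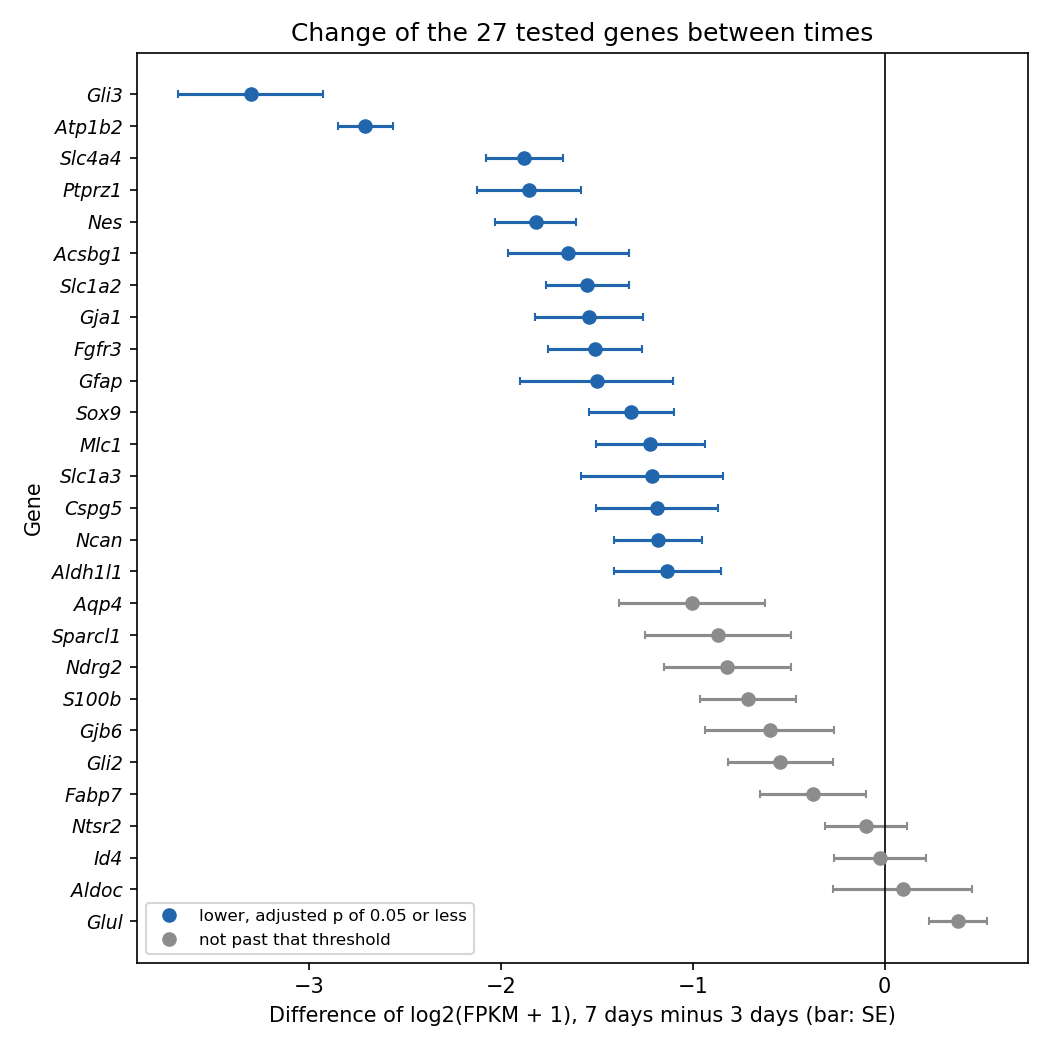
Difference of log2(FPKM + 1), 7 days minus 3 days, for the 27 tested genes, with bars for the SE (3 libraries per time). The 16 genes in blue passed an adjusted p of 0.05, from Gli3 at -3.30 to Aldh1l1 at -1.13; Glul, at 0.38, lies farthest to the right.

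The summed FPKM of all 27 tested genes was 490, 1097 and 571 at 3 days and 362, 334 and 387 at 7 days, so every 3-day sum lay above every 7-day sum. Gfap made up 29.3 ± 6.12% of the summed FPKM of the 27 genes at 3 days and 18.96 ± 1.40% at 7 days (SD, n = 3). Glul made up 17.1 ± 3.71% at 3 days and 41.1 ± 0.391% at 7 days. By mean FPKM the highest of the tested genes at 3 days were Gfap, Glul and Aqp4, and at 7 days Glul, Gfap and Fabp7. Aqp4, Slc1a2, Sparcl1, Atp1b2 and Fabp7 had means from 31.3 to 37.01 FPKM at 3 days, and differences between them were not tested. Their order changed between libraries, with Slc1a2 the highest in 3-day replicate 1 (33.9 FPKM) and Aqp4 in 3-day replicate 2 (65.5 FPKM). At 7 days the same 5 genes ran from 4.13 FPKM (Atp1b2) to 22.96 FPKM (Fabp7).

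The excess in 3-day replicate 2 also differed between genes. It ran from 1.27 times the other 3-day libraries for Atp1b2 to 3.83 for Clu, with a median of 2.00, where the median over 9682 tested genes above 1 FPKM in every library was 0.984. The ratio of the mean of 3-day replicates 1 and 3 to the 7-day mean ran from 1.90 (Slc1a3) to 19.4 (Gli3) among the genes that fell, and from 0.678 (Aldoc) to 2.10 (Gli2) among those that did not pass. Gfap, Slc1a3, Aqp4, Sparcl1, Gjb6 and Gli2 had the largest excess in 3-day replicate 2 of the tested genes, from 2.80 to 3.55, and ratios without it between 1.24 and 2.10. The smallest excess among the genes that fell, from 1.27 to 1.62, belonged to Atp1b2, Nes, Gli3, Aldh1l1, Slc1a2 and Slc4a4, whose ratios without that library ran from 2.14 (Aldh1l1) to 19.4 (Gli3). Among genes that did not pass, Glul, Ntsr2 and S100b had an excess in the same range, and ratios of 0.686, 0.965 and 1.46.

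**Figure D3:**
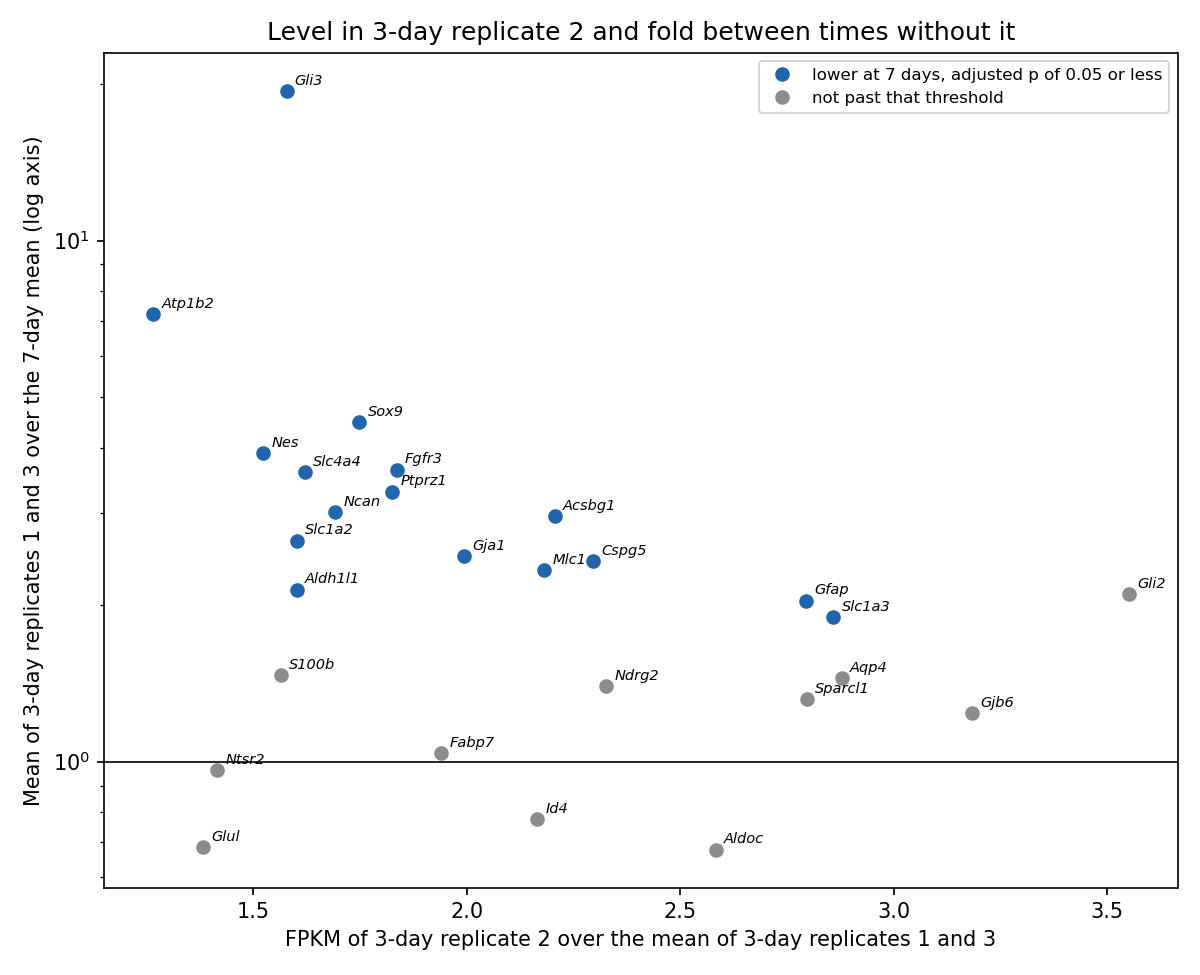
For each of the 27 tested genes, FPKM of 3-day replicate 2 over the mean of the other 3-day libraries (horizontal) and the mean of those libraries over the 7-day mean (vertical, log axis); the axes share 3-day replicates 1 and 3, so they are not independent. Gli3 and Atp1b2 lie highest, Gfap and Slc1a3 are the lowest of the blue points that fell, and Aldoc, Glul, Id4 and Ntsr2 lie under 1.

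Other genes of astrocytes, taken from a separate list, fell in 12 of 24 tested members and rose in 0, with a median log2 difference of -0.78. Mt3, a metallothionein of brain, fell from 25.4 ± 12.2 to 2.30 ± 1.01 FPKM. The tissue factor gene F3 fell from 16.9 ± 6.004 to 3.38 ± 0.823 FPKM, Hepacam, the adhesion partner of MLC1, from 7.09 ± 3.37 to 1.08 ± 0.267 FPKM, and Kcnj10 (Kir4.1), the potassium channel of astrocytes, from 23.3 ± 8.68 to 5.85 ± 0.807 FPKM (SD, n = 3). In a fit on the authors' filtered table, which holds 10239 rows in place of 13960, only 1 of these genes was called lower. How many of the 24 that table holds was not counted, so this does not show that calls were lost.

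Of 22 tested genes known from reactive astrocytes, 12 fell and 2 rose (1 without any single library other than 3-day replicate 2). Several of these are made by macrophages too, among them Thbs1 (thrombospondin 1), which was the highest of those named and fell from 975 ± 198 to 196 ± 5.72 FPKM. Timp1, an inhibitor of matrix proteases, fell from 35.9 ± 14.3 to 5.78 ± 1.91 FPKM, the sphingosine kinase gene Sphk1 from 8.50 ± 2.32 to 0.569 ± 0.344 FPKM, and Tm4sf1 from 18.3 ± 10.7 to 2.33 ± 0.691 FPKM (SD, n = 3). 3-day replicate 2 was the highest library for 14 of the 22 genes, Timp1 and Tm4sf1 among them. The summed level of the list, to which Thbs1 adds 1150, 759 and 1015 FPKM in 3-day replicates 1, 2 and 3, was 2641, 2338 and 2538 FPKM in those libraries.

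Genes of neural progenitors and radial glia fell in 4 of 9 tested members and rose in 2, beside 20.3% lower and 18.8% higher over all tested genes. Hes1, a Notch target, fell from 5.72 ± 2.29 to 1.64 ± 0.572 FPKM and Lrig1 from 21.8 ± 6.74 to 8.19 ± 1.65 FPKM, while Fut4 rose from 2.23 ± 0.258 to 3.83 ± 0.722 FPKM and Dach1 from 3.92 ± 0.677 to 6.02 ± 0.326 FPKM (SD, n = 3). The count called lower was 2 without 3-day replicate 3 or 7-day replicates 1 or 2, and the count called higher was 1 without 7-day replicate 3 and 0 when any of the remaining libraries but 3-day replicate 1 was left out. Of 15 Notch pathway genes, 7 fell and 2 rose. The ligand gene Jag1 fell from 25.6 ± 3.99 to 12.04 ± 2.18 FPKM and Dll1 from 1.03 ± 0.307 to 0.164 ± 0.0573 FPKM, and the coactivator gene Maml2 rose from 5.13 ± 0.0553 to 9.14 ± 2.46 FPKM. Leaving out 7-day replicate 1, 2 or 3 left 4, 2 or 3 Notch genes called lower. The count called higher was 0 without 7-day replicates 1 or 3, and 1 without 3-day replicates 1 or 3. Of 3 tested ependymal genes, 0 passed the test in either direction (1 was called lower with a pseudocount of 0.1 or without 3-day replicate 1), and 7 of the 10 ependymal genes listed had no row.

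Markers of other cells of the cord moved with these genes, and their part in the result was not tested. Of 11 tested oligodendrocyte markers 11 fell, of 13 neuron markers 13 fell, of 8 oligodendrocyte progenitor genes 6 fell (3 without 7-day replicate 1 or 2), and of 9 endothelial markers 7 fell and 1 rose. For neuron markers the count was 8 without 7-day replicate 2 or 3. The summed FPKM of oligodendrocyte markers ran from 349 to 706 at 3 days and from 152 to 178 at 7 days, that of neuron markers from 259 to 594 and from 84.6 to 95.9, and that of endothelial markers from 51.01 to 86.9 and from 29.9 to 33.97. 3-day replicate 2 held the highest sum of each of these, at 1.79, 2.23 and 1.63 times the other 3-day libraries, beside 2.07 times for the 27 astrocyte and progenitor genes. The ratio of 3-day to 7-day mean sums was 1.99 for the 27 genes, 3.06 for oligodendrocyte markers and 4.24 for neuron markers. Without 3-day replicate 2 the ratios were 1.47, 2.42 and 3.01. Glul, which macrophages also make, had a higher mean at 7 days than at 3 days. It made up 17.1% of the 27-gene sum at 3 days and 41.1% at 7 days, so the 1.99 and 1.47 depend on it. They depend on Gfap too. With Gfap left out of the sum the ratio was 1.70, or 1.34 without 3-day replicate 2. The excess of that library was then 1.81 in place of 2.07. The medians of log2 difference were -1.49 for oligodendrocyte and -1.50 for neuron markers, beside -1.19 for the 27 genes. None of the tested markers on these lists was at 0 in all libraries. Whether the astrocyte genes differ from those of other neural cells was not tested.

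Macrophages are cells that the precipitation was meant to enrich, and many microglia markers are shared with them. The summed FPKM of 8 tested macrophage markers ran from 1810 to 2113 at 3 days and from 2019 to 2216 at 7 days, with 3 genes higher and 2 lower (1 lower without 7-day replicate 1). That of 7 microglia markers ran from 784 to 980 at 3 days and from 2322 to 2557 at 7 days, with 6 higher and 0 lower (1 lower without 3-day replicate 1). Neither sum was highest in 3-day replicate 2. Cx3cr1, a receptor of microglia and of many monocytes, rose from 17.4 ± 2.30 to 72.8 ± 7.05 FPKM. Neutrophil markers, also targets of LysM-Cre, summed to between 48.3 and 53.2 FPKM at 3 days and between 31.2 and 49.02 FPKM at 7 days. Of 6 neutrophil markers 1 was lower and 1 higher, beside 20.3% lower and 18.8% higher over all tested genes. The neutrophil count lower was 2 without 3-day replicate 1 and 3 without 3-day replicate 3, and the count higher was 0 when any library but 7-day replicate 3 was left out. Schwann cell markers summed to between 29.5 and 49.2 FPKM at 3 days and between 24.7 and 30.3 FPKM at 7 days (2 of 6 lower, 1 higher), and fibroblast and pericyte markers to between 195 and 370 FPKM at 3 days and between 239.5 and 333 FPKM at 7 days (3 of 7 lower, 1 higher). The count lower for fibroblast and pericyte markers was 0 without 3-day replicate 3 or 7-day replicate 1 or 2, and 1 without 3-day replicate 2. For Schwann cell markers it was 1 without 3-day replicate 1 or 2 or 7-day replicate 1.

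**Figure D4:**
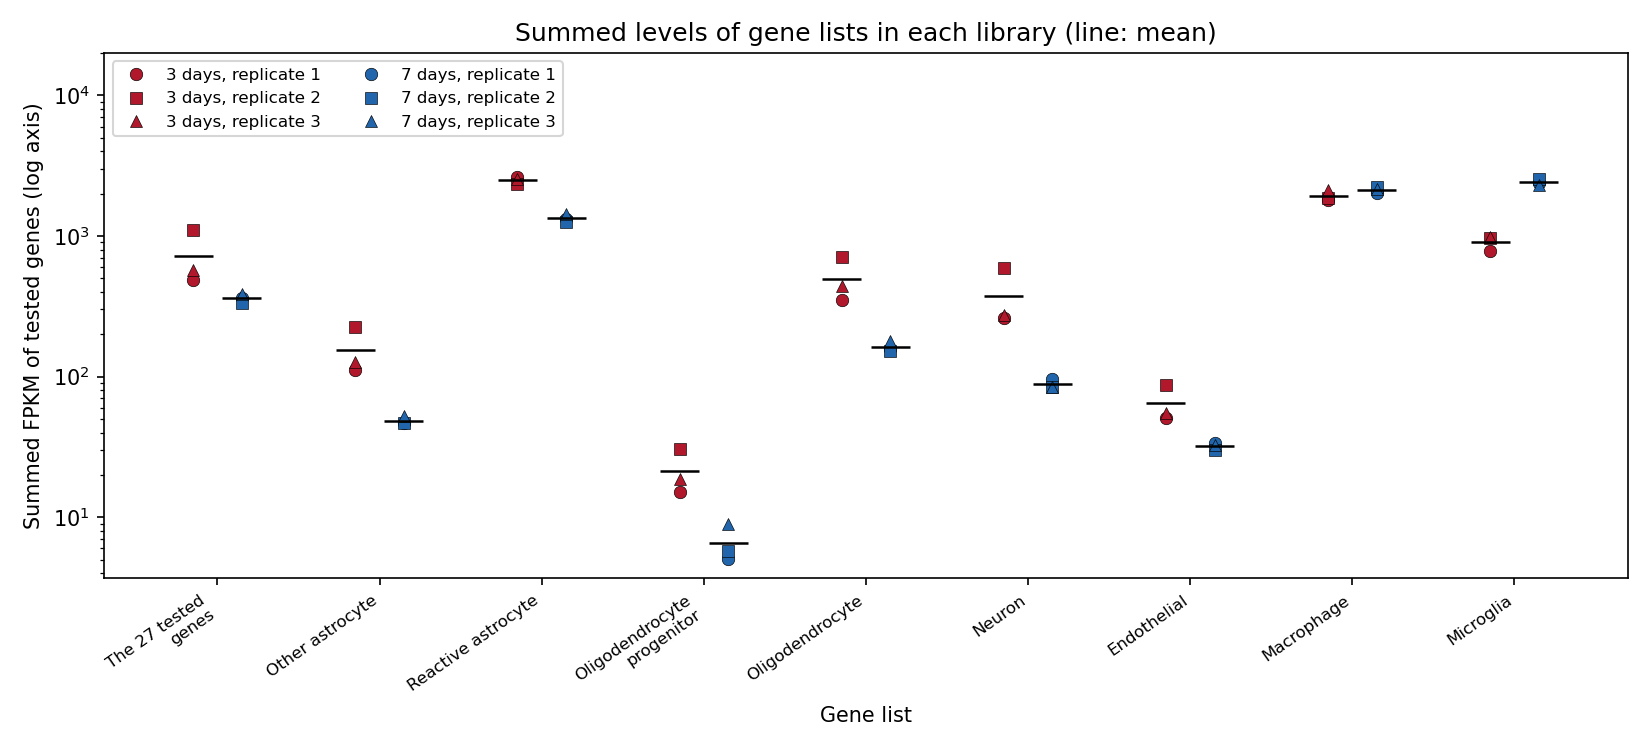
Summed FPKM (log axis) of the tested genes of each list in each library, with a line at the mean of each time. The sums of the 27 genes, 490 to 1097 FPKM at 3 days and 334 to 387 at 7 days, are highest in 3-day replicate 2 (red squares), as are those of other astrocyte genes and of oligodendrocyte, neuron and endothelial markers. Macrophage sums overlap between times, and microglia sums are higher at 7 days.

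Rpl22, whose protein carries the tag, measured 41.6 to 53.7 FPKM at 3 days and 39.7 to 49.2 FPKM at 7 days, which does not check the tag, since the tagged and untagged transcripts are not told apart. Lyz2, the gene of the Cre driver, was between 2900.2 and 4272 FPKM at 3 days and is listed at 9435, 5862 and 0 FPKM at 7 days; its row was set aside. The commonest ratio of low FPKM values in 3-day replicate 1 to those in each other library put the other depths at 0.758 to 0.939 of its own. That holds provided that scaling was by mapped fragments of each library, which is not stated. Between 19 and 34 rows held the commonest ratio, of 505 to 633 low rows in each comparison. The read number behind each value is unknown.

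The authors' deposited table calls 22 of the 27 genes significant, 21 lower and 1 (Glul) higher, where it calls 20.7% of all tested genes lower and 17.8% higher. It holds 15 of the 16 genes called lower here; the exception was Gli3. Aqp4, Sparcl1, Ndrg2, S100b, Gjb6 and Fabp7 are lower in the authors' deposited table (q-values from 3.13e-04 to 0.0396) and did not pass the test used here, and Aldoc, Id4, Ntsr2 and Gli2 passed neither. The authors' filtered table leaves out 15 of the 30 genes with a row, among them Gfap, Slc1a2, Aqp4, Fgfr3, Ptprz1 and Ncan.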

How the data were processed

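Per the labels' protocols, RNA precipitated with tagged ribosomes went through ScriptSeq v2 library preparation. The submitters' processing notes name TopHat2 2.0.12, Cufflinks 2.2, Cuffdiff 2.2.1 and build mm10, without roles. Per the file headers, the authors deposited FPKM per gene and library, mean FPKM per time, a log2 fold change and a p-value with a q-value; the scaling between libraries is not given in the sources used here.

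Of 13960 rows, 918 were set aside (status not OK, library values missing the authors' mean by over 1%, a 0 beside 100 FPKM or more, or a repeated symbol). The other 13042 were tested as log2(FPKM + 1), 7 days minus 3 days, two-sided, with limma 3.58.1 (mean-dependent prior variance, R 4.3.3) and Benjamini-Hochberg adjustment. With 3 libraries a time, the smallest p of an exact permutation test is 0.1. Simulated data of 13042 genes took their mean and spread from these libraries. In them 65% of 100 genes changed by a log2 of 1 and 94% of 100 changed by a log2 of 2 were called, with 8 false calls. The changed genes were not drawn from rows of low mean level. In the real data far more genes were called (20.3% lower and 18.8% higher). The percentages of the simulation therefore do not give the sensitivity for these data, nor for low genes such as Gli2. Fold ratios are of mean FPKM, and low genes have smaller differences on the log2(FPKM + 1) scale.

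The members and the 17 other lists were chosen with earlier results of these data known. The counts called in each list stand beside 20.3% lower and 18.8% higher over all tested genes. All tested members are described; from each other list, the genes named have the largest called changes, up to 4 per list, with at least 1 FPKM in mean at either time. Same-numbered libraries were not paired. Alternatives were the pseudocount (0.1), a filter at 1 FPKM, quantile normalization, centring, 1 prior variance, the filtered table, no row set aside, the replicate block and leaving out each library. Promoters are RefSeq's.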

Additional observations from a re-analysis of the deposited data

How the results depend on the processing

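Of the 16 genes called lower, 11 kept the call under each of the alternatives that tested them (14 were run), and Gfap, Slc1a3, Mlc1, Aldh1l1 and Cspg5 lost it under at least 1. S100b, Aqp4, Glul and Ndrg2 gained a call under at least 1. The authors' filtered table, which holds fewer of the genes, gave 8 called lower and, over all genes, 2388 higher and 1433 lower. Quantile normalization gave 2317 higher and 1809 lower over all genes, and centring each library on its median gene 2920 and 2321, with 1 of the genes (Glul) called higher. Leaving out 1 library at a time gave 11 to 19 genes called lower and 0 to 1 called higher, and over all genes 1697 to 2565 lower and 1572 to 2207 higher, the lowest counts of all genes without 7-day replicate 2. The sign turned for 3 genes, none of them called, and the cause was not tested. Id4 was at 0.50 with quantile normalization, 0.0602 with centring and between -0.21 and 0.22 with a library left out. Aldoc ran from -0.27 to 0.52 with a library left out. Ntsr2 was at 0.44 with quantile normalization and between -0.23 and 0.0789 with a library left out. Same-numbered libraries had deviations correlated at 0.0995, 0.0054 and 0.0047, which does not pair them. With the replicate block, 18 of the genes were called lower and 0 higher, and over all genes 2425 lower and 2450 higher. The number of reads is unknown, which limits what can be said of genes near 1 FPKM such as Gli2, Id4, Gjb6 and Ntsr2.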
